A study of Mus musculus with 12 samples.

Results

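The genes described here are 45 genes of protein folding and quality control in the endoplasmic reticulum (ER), taken as a list of symbols from the 56748 gene IDs counted in every library. All 45 were found among those IDs and passed the filter on low counts. By role they were 9 luminal chaperones and co-chaperones, 2 lectin chaperones, 5 genes of disulfide formation, 4 genes of the stress sensors and Xbp1, 10 genes of ER-associated degradation (ERAD), 7 of the translocon, 4 of the signal peptidase and 4 of the oligosaccharyltransferase. RNA was sequenced from natural killer (NK) cells of mouse lymph nodes after a cell sort. NK cells are innate lymphocytes that kill infected cells and tumor cells. The 12 libraries formed 3 groups of 4. Tumor-free nodes came from C57BL/6J mice, and the other nodes bore diffuse large B cell lymphoma, spread through the lymph in the lymphatic model or through the blood in the hematogenous model. The sources used here do not name the lymphoma cells, the ages, the times of harvest or the markers of the sort. Nothing in the labels ties each replicate to its own animal. The p-values therefore measure only how far these samples spread, and that spread may be technical.

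Proteins bound for the cell surface, the secretory granules or the outside enter the ER through the SEC61 channel, lose their signal peptide, receive N-linked sugars and fold with the help of chaperones and disulfide isomerases. Chains that fail to fold are returned to the cytosol and degraded by ERAD. When unfolded proteins accumulate, the sensors IRE1, PERK and ATF6 start the unfolded protein response, which raises transcription of chaperone and ERAD genes and lowers translation. NK cells make perforin, granzymes and receptors along this route.

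Many ER chaperone genes are known to carry an ER stress element, which is CCAAT, any 9 bases and CCACG, or a related element, which is ATTGG, any 1 base and CCACG, in their promoter. Promoter windows of RefSeq (build GRCm38.p6, 250 bases before to 50 after the start) were matched for 36 of the 45 genes and were searched on both strands. The first element was in the windows of 9 genes (25% of 36), against 0.119% of all 32851 windows. These genes were Hspa5, Hsp90b1, Calr, Canx, Pdia6, Dnajc3, Creld2, Syvn1 and Derl3. The second element was in the windows of Herpud1 and Dnajb11 (5.56%), against 0.0365% of all windows, and no window held both elements. Neither TGACGTGG, the core that XBP1 binds, nor the cyclic AMP response element TGACGTCA, which begins with the same 6 letters, was in any window of the 36 genes, against 0.676% and 1.79% of all windows. The list holds chaperone genes of the kind known to carry these elements, so the shares describe it and test nothing. Shares of the 36 count genes, some with more than 1 window, and the others count windows. A match describes letters in a window and is not a measured binding site, and the windows come from another build than the one the counts were made on. The 6 promoters below are shown because Hspa5 and Dnajb9 rose in the lymphatic model, Sdf2l1 and Calr fell in the hematogenous model, Hsp90b1 has 2 matches and Herpud1 is the ERAD gene with the second element. Each is 220 bases, 5′ to 3′ on the strand of the gene, ending at the base before the start. Matches to either element are in capitals, and a match on the opposite strand reads from CGTGG to ATTGG.
Hspa5: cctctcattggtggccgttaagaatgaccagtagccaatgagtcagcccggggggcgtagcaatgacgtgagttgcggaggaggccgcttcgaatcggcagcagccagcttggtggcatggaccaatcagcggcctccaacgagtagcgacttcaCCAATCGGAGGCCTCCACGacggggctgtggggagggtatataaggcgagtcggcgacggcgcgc
Hsp90b1: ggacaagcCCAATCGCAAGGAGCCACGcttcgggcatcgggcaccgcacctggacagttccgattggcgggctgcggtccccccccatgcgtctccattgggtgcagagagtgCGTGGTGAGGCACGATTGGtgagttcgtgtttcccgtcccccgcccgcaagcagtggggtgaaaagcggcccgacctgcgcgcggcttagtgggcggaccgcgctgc
Calr: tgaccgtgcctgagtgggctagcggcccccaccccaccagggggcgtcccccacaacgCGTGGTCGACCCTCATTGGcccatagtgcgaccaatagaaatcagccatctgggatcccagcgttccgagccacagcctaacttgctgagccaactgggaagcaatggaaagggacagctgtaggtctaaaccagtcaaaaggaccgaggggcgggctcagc
Herpud1: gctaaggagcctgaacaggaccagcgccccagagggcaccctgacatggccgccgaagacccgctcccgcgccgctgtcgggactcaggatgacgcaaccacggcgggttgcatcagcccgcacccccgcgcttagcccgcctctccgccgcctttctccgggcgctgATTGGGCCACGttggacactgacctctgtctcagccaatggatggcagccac
Dnajb9: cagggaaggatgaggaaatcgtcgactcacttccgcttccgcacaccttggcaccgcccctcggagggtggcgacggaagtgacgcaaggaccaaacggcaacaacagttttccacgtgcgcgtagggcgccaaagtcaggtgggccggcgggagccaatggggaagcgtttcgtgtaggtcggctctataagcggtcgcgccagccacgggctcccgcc
Sdf2l1: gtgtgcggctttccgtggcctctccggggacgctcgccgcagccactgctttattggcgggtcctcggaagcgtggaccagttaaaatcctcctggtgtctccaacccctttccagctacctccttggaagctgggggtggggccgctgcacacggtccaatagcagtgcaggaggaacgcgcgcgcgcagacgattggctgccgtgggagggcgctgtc

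In GRCm38.p6 these windows lie at chr2:34771870-34772089 on the plus strand for Hspa5 and at chr10:86705445-86705664 on the minus strand for Hsp90b1, which has 2 matches. The Calr window is chr8:84846932-84847151 on the minus strand and the Herpud1 window chr8:94386209-94386428 on the plus strand. The windows of Dnajb9 (chr12:44210069-44210288, minus strand) and Sdf2l1 (chr16:17132384-17132603, minus strand) hold no match, which says only that these letters are not there. For Dnajb11 the match lies after the start. The Hspa5 match begins 65 bases before the start and the Herpud1 match 52 bases before it.

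The sequencing depth was 6654215 to 43494812 gene counts per library and was lowest in 3 tumor-free libraries. The share of reads assigned to genes was 65.7% to 70.7% in the tumor-free, 67.1% to 72.1% in the lymphatic and 55.4% to 65.5% in the hematogenous libraries. Levels below are gene counts scaled to library size (CPM) with TMM factors, and differences are log2 fold changes from edgeR's quasi-likelihood test. A gene was called changed at a Benjamini-Hochberg adjusted p under 0.05 over all 16016 tested genes. Lymphatic replicate 2 stood apart for this list, with the highest level of the lymphatic libraries in 34 of the 45 genes. Hematogenous replicate 1 had the lowest hematogenous level in 31 of them and also the lowest share of reads in genes. Calls of the 45 genes that were lost without either are named as such, and most levels and fold changes are given with all libraries. Of the 45 genes, 18 have an annotated gene on the opposite strand, and the sources used here do not give the strand setting of the counting, so reads of both may be counted together. The labelled cell type was checked by its markers. Ncr1, an NK receptor gene, was at 552 CPM or more in every library, and Prf1, the perforin gene, at 358 CPM or more.

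In the lymphatic model, 2 of the 45 genes rose against tumor-free nodes and none fell. Both belong to the BiP chaperone system, Hspa5 (2.07-fold) and Dnajb9 (3.18-fold). In the hematogenous model, 20 genes fell and 2 rose. The steepest fall was that of Sdf2l1, to 0.274 of the tumor-free level, and Sec61b, Calr, Rpn1 and Dad1 were at 0.474, 0.492, 0.525 and 0.549 of it. Those that fell were spread over chaperones, lectin chaperones, disulfide isomerases, ERAD, the translocon, the signal peptidase and the 4 listed subunits of the oligosaccharyltransferase. The genes that rose were Ern1, which encodes the sensor IRE1, and Dnajb9. Between the models, 27 of the 45 were lower in hematogenous than in lymphatic nodes and none was called higher.

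Of all genes tested, 2.32% rose and 0.418% fell in the lymphatic model, where the 45 had 2 calls (4.44%), and at an unadjusted p under 0.05 there were 3 higher and 0 lower. DESeq2 likewise called 2 higher and 0 lower. In the hematogenous model 9.52% of all genes rose and 6.87% fell, against 4.44% and 44.4% of the 45. Between the models 2.93% of all genes were higher and 5.92% lower in hematogenous nodes, against 0 and 60% of the 45. At an unadjusted p under 0.05, 2 of the 45 were higher there, and DESeq2 also called 2. The median log2 fold change of the 45 was 0.13 in the lymphatic model (0.08 over all genes), −0.49 in the hematogenous model (0.08 over all genes) and −0.62 between the models (−0.01 over all genes). The 4 libraries of one group lay wholly above or below those of the other for 4, 23 and 25 of the 45 genes in these comparisons, against 9.90%, 19.5% and 20.5% of all genes. The comparisons share libraries, so they are not independent of each other. The list was assembled with earlier results of these data known, and the shares are a description of it.

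**Figure D1:**
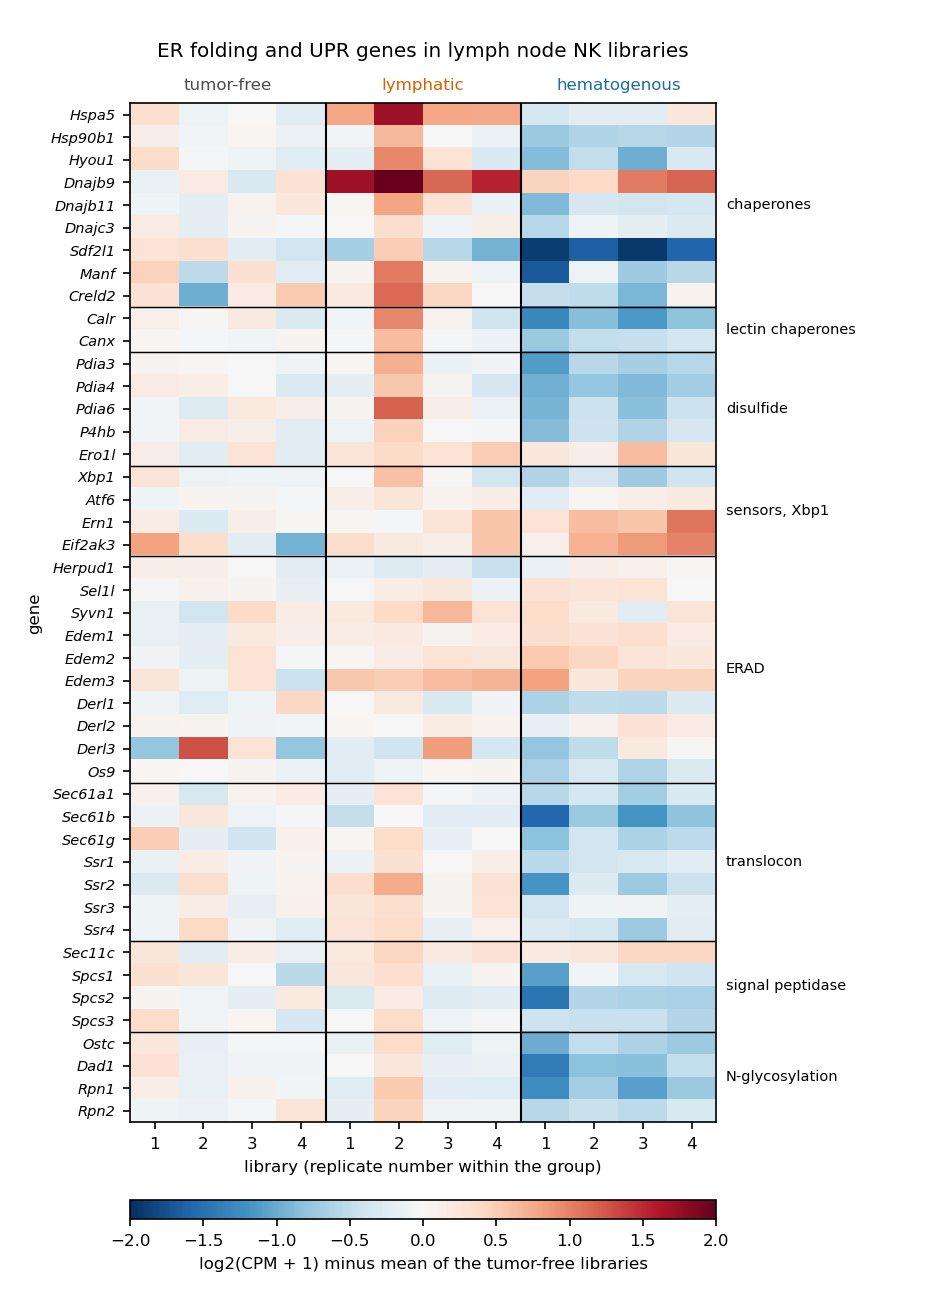
Heat map of the 45 genes (rows, by role) in the 12 libraries (columns, by group and replicate), colored by log2(CPM + 1) minus the mean of the 4 tumor-free libraries, with colors saturating at −2 and 2. Hspa5 and Dnajb9 are red in all 4 lymphatic libraries, and the rows of the 20 genes that fell in the hematogenous model are blue in the hematogenous libraries, from the chaperones to the oligosaccharyltransferase.

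Hspa5 encodes BiP, the HSP70 chaperone of the ER lumen that also holds the stress sensors inactive. Its levels were 591, 445, 479 and 405 CPM in tumor-free replicates 1 to 4, 816, 1539.5, 816 and 806 CPM in the lymphatic and 374, 408, 412 and 555 CPM in the hematogenous libraries. Every lymphatic library lay above all others, and the tumor-free and hematogenous libraries overlapped. Hspa5 rose in the lymphatic model by a log2 fold change of 1.05 (SE 0.192, adjusted p = 0.00308) and was lower in the hematogenous than in the lymphatic model by −1.18 (SE 0.192, adjusted p = 0.00118). Its difference between hematogenous and tumor-free nodes was −0.14 (95% interval −0.53 to 0.26, adjusted p = 0.693). Without lymphatic replicate 2, whose level was far above the other 3, the lymphatic call held, and over all libraries left out in turn its log2 fold change was 0.73 to 1.15 (highest adjusted p = 0.0247).

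Dnajb9 encodes ERdj4, a J-domain partner of BiP that also binds IRE1. Tumor-free libraries had 19.4, 24.1, 17.1 and 26.5 CPM, lymphatic libraries 71.6, 90.4, 48.7 and 64.4 CPM, and hematogenous libraries 29.5, 28.8, 45.2 and 49.5 CPM. Both models lay above all tumor-free libraries, and the models overlapped only in that 1 hematogenous library, replicate 4, exceeded the lowest lymphatic one. The log2 fold change was 1.67 (SE 0.228, adjusted p = 0.000195) in the lymphatic and 0.82 (SE 0.226, adjusted p = 0.0172) in the hematogenous model. Between the models it was −0.85 (SE 0.22, adjusted p = 0.0203). The hematogenous call was lost without hematogenous replicate 3 or 4 (highest adjusted p = 0.0634), and the call between the models without lymphatic replicate 2 or hematogenous replicate 1 or 2 (highest adjusted p = 0.109).

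Hsp90b1, which encodes GRP94, the HSP90 chaperone of the ER, was at 682, 603, 639 and 577 CPM in tumor-free and 598, 975, 623 and 576 CPM in lymphatic libraries. The hematogenous libraries had 372, 410.1, 421 and 416 CPM and lay below all 8 others. The log2 fold change was −0.63 (SE 0.145, adjusted p = 0.00624) against tumor-free and −0.78 (SE 0.145, adjusted p = 0.00283) against lymphatic nodes. In the lymphatic model the difference was 0.15 (adjusted p = 0.74), and without lymphatic replicate 2 it was −0.09.

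Sdf2l1, a partner of the co-chaperone ERdj3, had the steepest fall of the list. It stood at 48.3, 50, 33.7 and 30.4 CPM in tumor-free libraries, 24.7, 56.5, 26.5 and 20.2 CPM in lymphatic and 9.92, 12.2, 9.7 and 12.5 CPM in hematogenous libraries. Each hematogenous library was below each of the other 8, and lymphatic replicate 2 was the highest of all. The log2 fold change was −1.87 (SE 0.287, adjusted p = 0.000349) against tumor-free and −1.53 (SE 0.283, adjusted p = 0.00273) against lymphatic nodes, and in the lymphatic model −0.34 (adjusted p = 0.669).

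Of the 9 chaperone genes, 7 were lower in the hematogenous than in the lymphatic model (77.8%, against 5.92% of all genes). Against tumor-free nodes 2 fell (22.2%, against 6.87%). Dnajb11, the gene of ERdj3, had 124, 115, 138 and 152 CPM in tumor-free, 134, 229, 161 and 119.7 CPM in lymphatic, and 71, 104, 102 and 103 CPM in hematogenous libraries. Its hematogenous libraries lay below all others, at −0.76 (SE 0.177, adjusted p = 0.0111) against lymphatic and −0.48 (adjusted p = 0.0721) against tumor-free nodes. Hyou1, the gene of a nucleotide exchange factor of BiP, had 207, 157, 151 and 135 CPM in tumor-free, 140.1, 315, 194 and 129.6 CPM in lymphatic, and 87.7, 114, 81 and 130.2 CPM in hematogenous libraries. Between the models its groups overlapped by 1 library on each side, and its log2 fold change was −0.92 (SE 0.229, adjusted p = 0.0174). Its hematogenous libraries lay below all tumor-free ones, where it narrowly missed the threshold (−0.66, adjusted p = 0.0572) and DESeq2 called it lower (adjusted p = 0.0229). Manf, which encodes a secreted protein that binds BiP, had 79.7, 39.7, 71.2 and 48.5 CPM in tumor-free, 59.7, 119.5, 60.8 and 53.6 CPM in lymphatic, and 17.2, 53.5, 34.9 and 38.7 CPM in hematogenous libraries. Its call between the models (log2 fold change −1.02, SE 0.307, adjusted p = 0.0452) had groups that did not overlap, by a margin of 53.6 against 53.5 CPM.

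Without lymphatic replicate 2 the calls of Dnajb11, Hyou1 and Manf between the models were lost, and so they were without hematogenous replicate 1 (highest adjusted p over the libraries left out 0.057, 0.088 and 0.228). Hyou1 was also lost without hematogenous replicate 3, and Manf without any of 10 of the 12 libraries, all but lymphatic 4 and hematogenous 2. The chaperone genes not called in any comparison were Dnajc3, which encodes the co-chaperone p58IPK, and Creld2, whose protein is induced by ER stress, with levels of 147 to 282 and 16.9 to 76.1 CPM. Between the models Creld2 narrowly missed the threshold (−0.94, adjusted p = 0.0521), and Dnajc3 was at −0.37 (adjusted p = 0.0868). All 9 chaperone genes were lower there at an unadjusted p under 0.05, and DESeq2 called 8.

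**Figure D2:**
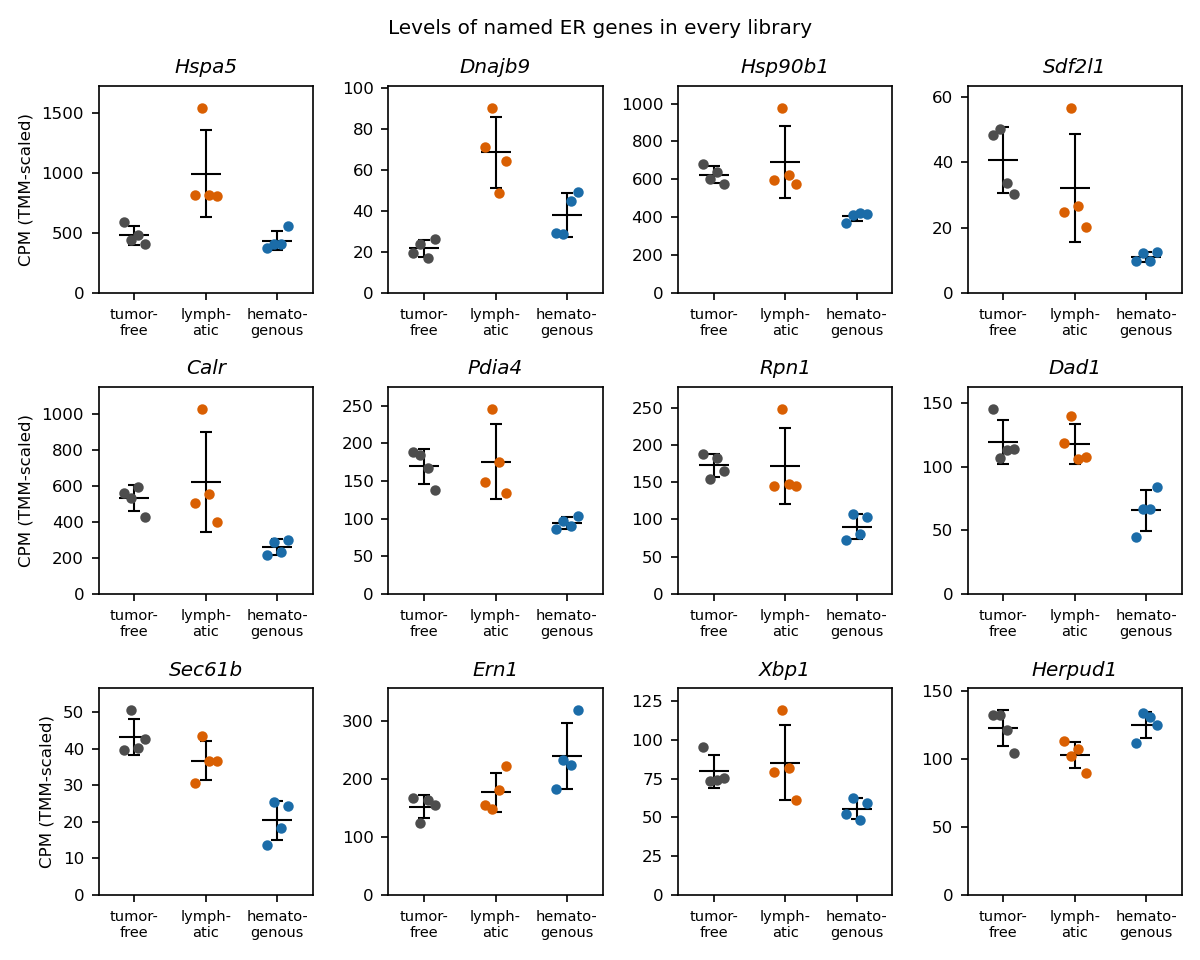
CPM (vertical axes, from 0) of 12 named genes in each of the 4 tumor-free, 4 lymphatic and 4 hematogenous libraries (points), with the group mean (dash) and SD (bar). Lymphatic libraries lie above the others for Hspa5, and hematogenous libraries lie below the others for Hsp90b1, Sdf2l1, Calr, Pdia4, Rpn1, Dad1 and Sec61b, and the groups overlap for Herpud1.

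The lectin chaperones calreticulin (Calr) and calnexin (Canx) retain newly glycosylated proteins until they fold. Calr had 564, 534, 597 and 430.0 CPM in tumor-free, 509, 1028, 555 and 399 CPM in lymphatic, and 216, 291, 236 and 303 CPM in hematogenous libraries. The hematogenous libraries were the 4 lowest, and the log2 fold change was −1.02 (SE 0.214, adjusted p = 0.00339) against tumor-free and −1.25 (SE 0.215, adjusted p = 0.00202) against lymphatic nodes. Canx had 407, 389, 381 and 410.3 CPM in tumor-free, 386, 611, 390.5 and 366 CPM in lymphatic, and 236, 281, 289 and 306 CPM in hematogenous libraries. Again all hematogenous libraries were below the rest, with −0.51 (SE 0.145, adjusted p = 0.0202) and −0.66 (SE 0.145, adjusted p = 0.00827). The call of Canx against tumor-free nodes was lost without hematogenous replicate 1 (adjusted p = 0.0608). Calr has a processed copy in the annotation, so reads of the gene may be split with it.

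Disulfide isomerases form and rearrange the bonds between cysteines. Of the 5 genes of this role, 3 fell in the hematogenous model (60%, against 6.87% of all genes). Between the models 4 were lower in hematogenous nodes (80%, against 5.92%). Pdia3 encodes ERp57, the isomerase that works with calnexin and calreticulin and in peptide loading of class I molecules. It had 433, 424, 412 and 392 CPM in tumor-free, 420.2, 677, 378 and 396 CPM in lymphatic, and 190.4, 281, 263 and 279.9 CPM in hematogenous libraries. Every hematogenous library was below the other 8, at −0.71 (SE 0.165, adjusted p = 0.00635) against tumor-free and −0.88 (SE 0.165, adjusted p = 0.00283) against lymphatic nodes. Pdia4, the gene of ERp72, had 188, 184, 167 and 138 CPM in tumor-free, 148, 245, 175 and 134 CPM in lymphatic, and 86.1, 97.5, 90.9 and 104 CPM in hematogenous libraries. The groups did not overlap, with −0.84 (SE 0.162, adjusted p = 0.00183) and −0.89 (SE 0.162, adjusted p = 0.00253).

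P4hb, the gene of the founding protein disulfide isomerase, had 258, 301, 292 and 229 CPM in tumor-free, 249, 372, 269 and 261 CPM in lymphatic, and 147, 202, 176 and 212 CPM in hematogenous libraries. The hematogenous libraries were again the lowest 4. It fell by 0.55 (SE 0.147, adjusted p = 0.0149) on the log2 scale against tumor-free nodes and was lower by −0.64 (SE 0.146, adjusted p = 0.0101) than in lymphatic nodes. The latter call was lost without hematogenous replicate 1 or 3 (highest adjusted p = 0.0523). Pdia6, the gene of the isomerase P5, had 134, 118, 161 and 152 CPM in tumor-free, 146, 320.1, 154 and 129 CPM in lymphatic, and 73.3, 104, 78.4 and 104 CPM in hematogenous libraries. Its hematogenous libraries were the lowest 4, and it was called between the models (−1.06, SE 0.224, adjusted p = 0.00658) and narrowly missed the threshold against tumor-free nodes (−0.65, adjusted p = 0.0517), where 8 of 10 other ways of processing called it lower. Ero1l, the oxidase that recharges the isomerases, was called in no comparison and ran from 25.7 to 46.1 CPM.

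Of the 4 genes of the sensor branches, 1 rose in the hematogenous model (25%, against 9.52% of all genes). None fell there (1 at an unadjusted p under 0.05, and 1 by DESeq2). Between the models 1 was lower in hematogenous nodes (25%, against 5.92%). Ern1 encodes IRE1, the kinase and nuclease that splices Xbp1 mRNA. Its levels were 168, 124, 164 and 155 CPM in tumor-free, 155, 148, 182 and 223 CPM in lymphatic, and 183, 233, 224 and 319 CPM in hematogenous libraries. All hematogenous libraries exceeded all tumor-free ones, with a log2 fold change of 0.65 (SE 0.164, adjusted p = 0.0107), and they overlapped with the lymphatic libraries (0.44, adjusted p = 0.105). Xbp1, the transcription factor gene downstream of IRE1, had 95.2, 73.5, 74.2 and 75.4 CPM in tumor-free, 79.5, 119, 81.7 and 61 CPM in lymphatic, and 51.9, 62.8, 48.2 and 59.5 CPM in hematogenous libraries. Its hematogenous levels were below all tumor-free ones (−0.52, adjusted p = 0.0519, and called lower by 7 of 10 other ways of processing) and were lower than in the lymphatic model, where 1 library overlapped (−0.62, SE 0.176, adjusted p = 0.0329). Leaving out tumor-free 4, lymphatic 2 or any hematogenous library ended that call (highest adjusted p = 0.187).

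Atf6, the gene of the membrane-bound transcription factor, ranged narrowly, with 105, 116, 115 and 109 CPM in tumor-free, 120.1, 132, 117 and 124 CPM in lymphatic, and 96.1, 114, 122 and 126 CPM in hematogenous libraries. All lymphatic libraries were above all tumor-free ones by a small margin, and the hematogenous libraries overlapped both. Its log2 fold change was 0.15 (95% interval −0.10 to 0.39) in the lymphatic and 0.04 (95% interval −0.20 to 0.29) in the hematogenous model. Eif2ak3, the gene of the kinase PERK, had 56.8, 41.1, 27.6 and 16.3 CPM in tumor-free, 41.1, 36.5, 34.8 and 47.6 CPM in lymphatic, and 34.6, 52.4, 58.8 and 65.1 CPM in hematogenous libraries. The tumor-free libraries spanned nearly the whole range, and no comparison was called (hematogenous against tumor-free 0.57, SE 0.276, adjusted p = 0.171). Counts per gene do not separate spliced from unspliced Xbp1 mRNA, and the activity of the sensors was not measured.

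Among the genes of ERAD 2 of 10 fell in the hematogenous model (20%, against 6.87% of all genes). Between the models 1 of 10 was lower in hematogenous nodes (10%, near the 5.92% of all genes). Against tumor-free nodes 7 of the 10 had a positive log2 fold change in the hematogenous model, with a median of 0.12. Over all genes 54.9% were positive there, with a median of 0.08. At an unadjusted p under 0.05, 3 were higher and 2 lower there, and DESeq2 called 1 higher and 2 lower. Os9 encodes a lectin that hands misfolded glycoproteins to the HRD1 ligase. It had 394, 387, 399 and 353 CPM in tumor-free, 332, 356, 395 and 396 CPM in lymphatic, and 243, 306, 249 and 314 CPM in hematogenous libraries. The hematogenous libraries were the lowest 4, at −0.46 (SE 0.117, adjusted p = 0.0108) against tumor-free and −0.41 (SE 0.117, adjusted p = 0.032) against lymphatic nodes. Derl1, a gene of the membrane channel family of derlins, had 89.9, 80.6, 89.9 and 127 CPM in tumor-free, 94.7, 108, 77.2 and 91.2 CPM in lymphatic, and 61.4, 67, 65.8 and 78.8 CPM in hematogenous libraries. It fell against tumor-free nodes (−0.50, SE 0.155, adjusted p = 0.0311) with no overlap, and the call was lost without tumor-free 4 or hematogenous 1, 2 or 3 (highest adjusted p = 0.121). The call of Os9 between the models was lost without any of 9 libraries, all but tumor-free 3, lymphatic 1 and hematogenous 4 (highest adjusted p = 0.173).

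Herpud1 encodes a membrane protein of the HRD1 complex and is a known target of the unfolded protein response. It had 132, 132, 122 and 104 CPM in tumor-free, 113, 102, 107 and 89.7 CPM in lymphatic, and 112, 133, 131 and 125 CPM in hematogenous libraries. The groups overlapped, and the log2 fold change was −0.25 (95% interval −0.51 to 0.00, adjusted p = 0.377) in the lymphatic and 0.03 (95% interval −0.23 to 0.29, adjusted p = 0.908) in the hematogenous model. Between the models Herpud1 was at 0.28 (95% interval 0.03 to 0.54, adjusted p = 0.179), opposite in sign to the lower calls of the list. It was called higher there by DESeq2 (0.35, adjusted p = 0.0418) and with the gene length trend removed (0.46, adjusted p = 0.0201). The other ERAD genes were called nowhere by edgeR. They were Sel1l and Syvn1, the adaptor and ligase of the HRD1 complex, the mannosidase-like genes Edem1, Edem2 and Edem3, Derl2, and Derl3, which had at most 3.11 CPM and 0 counts in 3 libraries. Edem3 was higher in all 4 lymphatic than in all tumor-free libraries, at 92.3 to 105 against 48.4 to 79.3 CPM (log2 fold change 0.56, adjusted p = 0.0715). In the hematogenous model Edem3 was at 0.47 (adjusted p = 0.0534) with overlapping groups, and between the models at −0.09 (adjusted p = 0.814). It was chosen for mention after its values were seen.

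**Figure D3:**
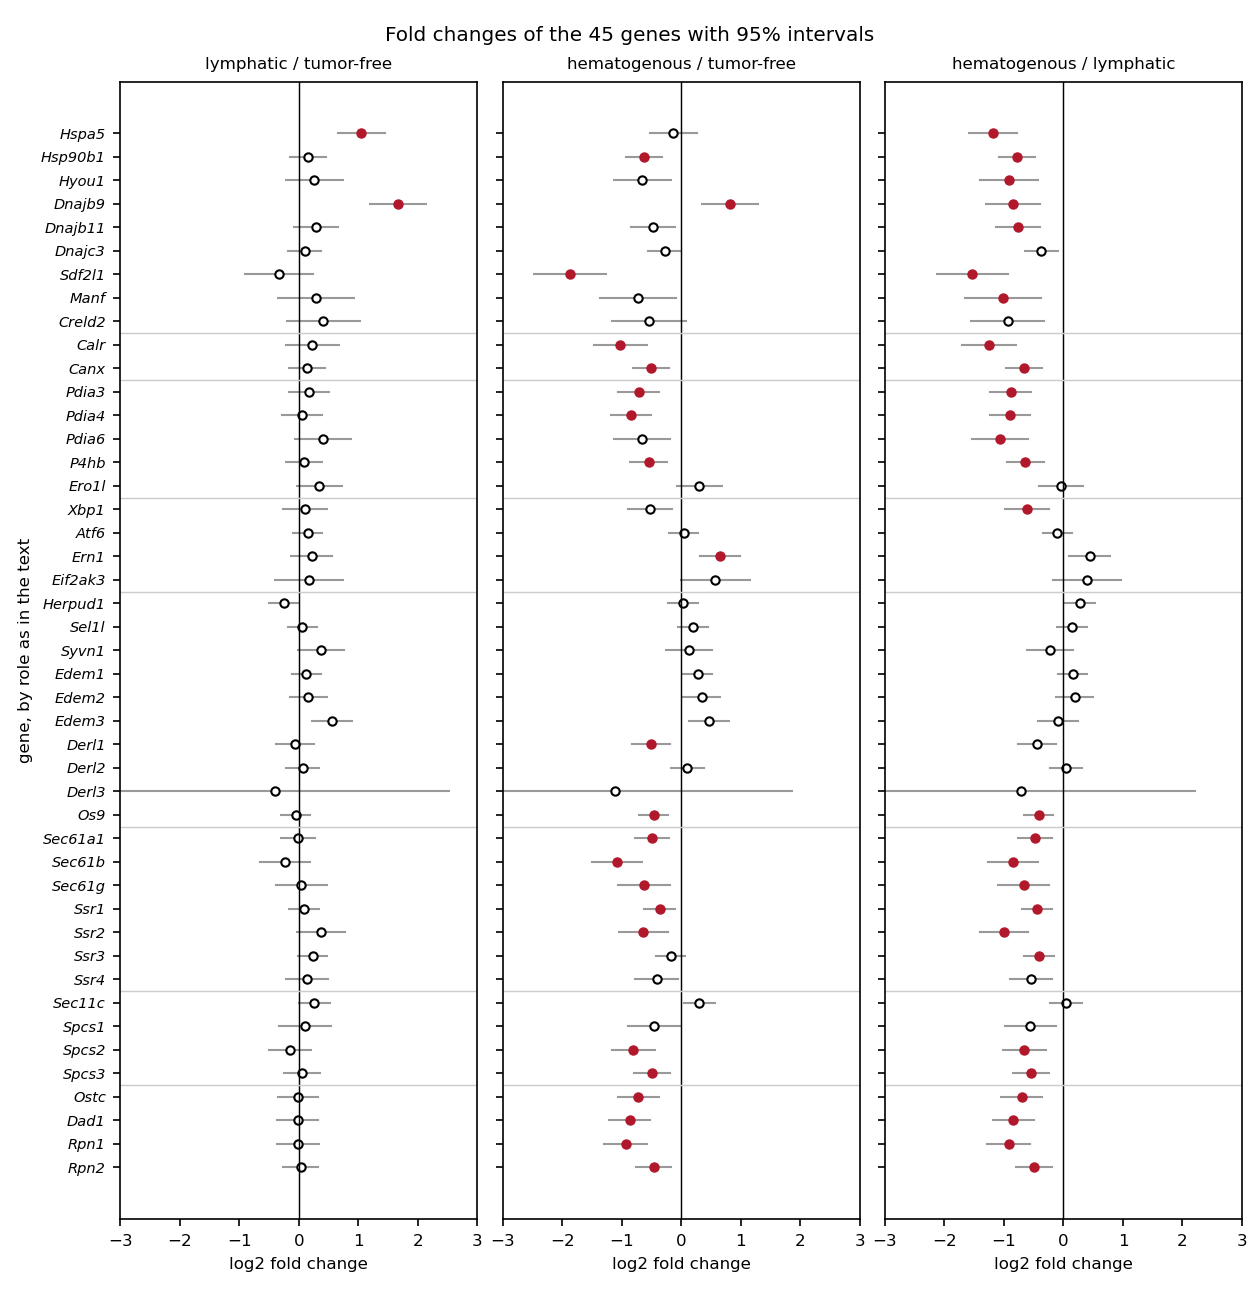
Log2 fold changes (horizontal axes) of the 45 genes (vertical axis, in the order of roles in the text) with 95% intervals, for the 3 comparisons. Filled red points are called at an adjusted p under 0.05 and open points are not, and the intervals of Derl3 run past the left edge. In the lymphatic panel the filled points are Hspa5 and Dnajb9, and in the hematogenous panels 20 and 27 filled points lie left of 0.

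Genes of the translocon, the gate into the ER, were lower in the hematogenous nodes, with 5 of 7 called against tumor-free and 6 of 7 against lymphatic nodes. These were 71.4% and 85.7% of the 7, against 6.87% and 5.92% of all genes. Sec61b, a subunit of the channel, had 39.8, 50.6, 40.2 and 42.6 CPM in tumor-free, 30.6, 43.4, 36.6 and 36.6 CPM in lymphatic, and 13.8, 25.3, 18.3 and 24.3 CPM in hematogenous libraries. All hematogenous libraries were below the others, at −1.08 (SE 0.204, adjusted p = 0.00161) and −0.85 (SE 0.202, adjusted p = 0.013). Sec61a1, the pore subunit, had 197, 148, 194 and 208 CPM in tumor-free, 164, 225, 180.0 and 171 CPM in lymphatic, and 126, 144, 114 and 149.8 CPM in hematogenous libraries. Here 1 hematogenous library exceeded the lowest tumor-free one and all were below the lymphatic ones, and the differences were −0.49 (SE 0.138, adjusted p = 0.0208) and −0.47 (SE 0.138, adjusted p = 0.0362). Sec61g, another subunit, had 52.1, 32.3, 27.8 and 39.3 CPM in tumor-free, 38, 47.9, 32.8 and 36.9 CPM in lymphatic, and 20.4, 28.5, 23.5 and 25.4 CPM in hematogenous libraries. It also overlapped with tumor-free and not with lymphatic libraries, at −0.63 (SE 0.208, adjusted p = 0.0445) and −0.67 (SE 0.206, adjusted p = 0.0473).

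These channel calls depended on single libraries to different degrees. Sec61b was called against tumor-free nodes whichever library was left out (highest adjusted p = 0.00858), and its call between the models was lost without lymphatic 2 or hematogenous 1 or 3 (highest adjusted p = 0.068). Sec61a1 was lost against tumor-free nodes without tumor-free 4 or hematogenous 3 (highest adjusted p = 0.0737), and between the models without tumor-free 1 or 4, lymphatic 2 or hematogenous 1, 2 or 3 (highest adjusted p = 0.187). Against tumor-free nodes the call of Sec61g did not survive leaving out tumor-free 1 or 4, lymphatic 1 or 3 or hematogenous 1, 3 or 4 (its highest adjusted p was 0.177). Between the models it was lost without any of 9 libraries, all but tumor-free 1 and 3 and lymphatic 3 (highest adjusted p = 0.203).

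The Ssr genes encode the translocon-associated complex that helps some signal sequences enter. Ssr2 had 60.6, 92.9, 70.1 and 78 CPM in tumor-free, 95, 126, 77.3 and 91.3 CPM in lymphatic, and 32.3, 61.6, 44.8 and 54.9 CPM in hematogenous libraries. Hematogenous libraries were below all lymphatic ones (−1.01, SE 0.194, adjusted p = 0.00348) and overlapped by 1 library with the tumor-free ones (−0.63, SE 0.195, adjusted p = 0.0309). Ssr1 had 154, 188, 162 and 177 CPM in tumor-free, 156, 210.0, 170.0 and 184 CPM in lymphatic, and 117, 131, 136 and 145 CPM in hematogenous libraries. Its groups did not overlap, at −0.36 (SE 0.123, adjusted p = 0.0484) and −0.44 (SE 0.122, adjusted p = 0.0277). Ssr3 had 147, 172, 138 and 165 CPM in tumor-free, 183, 197, 162 and 187 CPM in lymphatic, and 118, 146, 148 and 137 CPM in hematogenous libraries, and was called between the models only, where the groups did not overlap (−0.41, SE 0.119, adjusted p = 0.0359). Ssr4 was called nowhere and ran from 37.9 to 84.3 CPM. Between the models its groups did not overlap, and it narrowly missed the threshold (−0.55, adjusted p = 0.053).

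Single libraries decided several of these calls too. Against tumor-free nodes Ssr2 was lost without tumor-free 2 or 4 or hematogenous 1 or 3 (highest adjusted p = 0.0997), and Ssr1 without any of 9 libraries, all but tumor-free 1 and lymphatic 2 and 4 (highest adjusted p = 0.127). Between the models Ssr2 was kept throughout (highest adjusted p = 0.0242). There Ssr1 was lost without tumor-free 4, lymphatic 2 or 4 or hematogenous 1, 2 or 3 (highest adjusted p = 0.132), and Ssr3 without any of 10 libraries, all but tumor-free 3 and lymphatic 3 (highest adjusted p = 0.185).

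The signal peptidase cuts the signal sequence from entering chains, and 2 of its 4 genes were lower in the hematogenous nodes in both comparisons. That is 50%, against 6.87% of all genes relative to tumor-free and 5.92% relative to lymphatic nodes. Spcs2 had 137, 128, 116 and 152 CPM in tumor-free, 108, 149, 110.1 and 113 CPM in lymphatic, and 47.3, 87.7, 85 and 84.4 CPM in hematogenous libraries. Hematogenous replicate 1 was far below the other 3, and all 4 were below the rest (−0.80, SE 0.172, adjusted p = 0.00377 against tumor-free; −0.66, SE 0.171, adjusted p = 0.0203 against lymphatic nodes). Spcs3, a subunit needed for the activity, had 206, 153, 163 and 124 CPM in tumor-free, 159, 206, 149 and 156 CPM in lymphatic, and 118, 116, 117 and 106 CPM in hematogenous libraries. It did not overlap with either group, at −0.50 (SE 0.145, adjusted p = 0.0232) and −0.55 (SE 0.145, adjusted p = 0.0212). Sec11c, a catalytic subunit, and Spcs1 were called nowhere, with 119 to 186 and 29.4 to 80.9 CPM.

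Spcs2 was kept against tumor-free nodes whichever library was left out (highest adjusted p = 0.0152), and was lost between the models without lymphatic 2 or hematogenous 1 or 3 (highest adjusted p = 0.104). Spcs3 was lost against tumor-free nodes without tumor-free 1 or hematogenous 3 or 4 (highest adjusted p = 0.0957). Between the models it was lost without lymphatic 2 or any hematogenous library (highest adjusted p = 0.0976). Spcs2 has a processed copy in the annotation with which reads may be split.

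The oligosaccharyltransferase attaches N-linked sugars, and all 4 of its genes on the list fell against tumor-free nodes and were lower than in lymphatic nodes, with no overlap in either comparison. Over all genes 6.87% and 5.92% were lower in these comparisons, and groups did not overlap for 19.5% and 20.5%. Rpn1, the gene of ribophorin I, had 188, 154, 182 and 166 CPM in tumor-free, 145, 248, 147 and 145 CPM in lymphatic, and 72.1, 107, 80.2 and 103 CPM in hematogenous libraries. Its log2 fold change was −0.93 (SE 0.172, adjusted p = 0.00135) against tumor-free and −0.92 (SE 0.172, adjusted p = 0.00283) against lymphatic nodes. Dad1, a small subunit known as a defender against cell death, had 145, 107, 113 and 113 CPM in tumor-free, 118, 139.5, 106 and 108 CPM in lymphatic, and 44.5, 67.1, 66.4 and 84.2 CPM in hematogenous libraries. The differences were −0.87 (SE 0.167, adjusted p = 0.00183) and −0.85 (SE 0.166, adjusted p = 0.00383). Leaving out any 1 library kept the calls of Rpn1 and Dad1 in both comparisons.

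Ostc, a subunit of the complex that acts at the translocon, had 77.3, 59.8, 65.4 and 66.1 CPM in tumor-free, 60.6, 86.1, 56.2 and 62.3 CPM in lymphatic, and 33, 47.2, 42.6 and 40.2 CPM in hematogenous libraries. The differences were −0.72 (SE 0.165, adjusted p = 0.00612) and −0.70 (SE 0.164, adjusted p = 0.0116), and the latter was lost without lymphatic 2 or hematogenous 1 (highest adjusted p = 0.0691). Rpn2, the gene of ribophorin II, had 184, 180.2, 190.2 and 235 CPM in tumor-free, 173, 269, 182 and 183 CPM in lymphatic, and 134, 143, 136 and 159 CPM in hematogenous libraries. It was lower by −0.46 (SE 0.142, adjusted p = 0.0301) and −0.50 (SE 0.142, adjusted p = 0.0327). The first call was lost without tumor-free 4 or hematogenous 1, 2 or 3 (highest adjusted p = 0.0976). The second was lost without tumor-free 1, lymphatic 2 or hematogenous 1, 2 or 3 (highest adjusted p = 0.159).

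In the lymphatic model no gene of the 8 roles was called lower, and outside the chaperones none was called higher by edgeR (Edem3 alone at an unadjusted p under 0.05, and 0 genes by DESeq2). For the 4 oligosaccharyltransferase genes the log2 fold changes in that comparison lay between −0.02 and 0.03. The 9 genes with the first promoter element held 1 higher call in the lymphatic model (Hspa5), 3 lower calls in the hematogenous model (Hsp90b1, Calr and Canx) and 5 lower calls between the models (Hspa5, Hsp90b1, Calr, Canx and Pdia6). The higher call was 11.1% of the 9, against 4.44% of the 45. These lower calls were 33.3% and 55.6% of the 9, against 44.4% and 60% of the 45. The 9 include Derl3, which had at most 3.11 CPM. Dnajb9 and Sdf2l1, which have no match in the window, had the largest rise and the largest fall of the list. Whether the element had a part in these changes was not tested. Per kilobase of exon, averaged over the 12 libraries, the highest levels were those of Calr (164 CPM per kb), Hspa5 (151), Hsp90b1 (142), Os9 (131) and Pdia3 (121), and the lowest were those of Derl3 (0.386) and Ero1l (6.69).

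Summed over the 45 genes, the level was 6608 to 7467 CPM in tumor-free, 7126 to 10828 CPM in lymphatic and 4630 to 5897 CPM in hematogenous libraries. The sum of the 4 oligosaccharyltransferase genes was 501 to 595, 492 to 743 and 283 to 386 CPM. The sum of the 10 ERAD genes was 1048 to 1148, 1070.2 to 1163 and 1026 to 1075 CPM, so the ERAD sums overlapped between all groups and the oligosaccharyltransferase sums were lowest in the 4 hematogenous libraries.

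**Figure D4:**
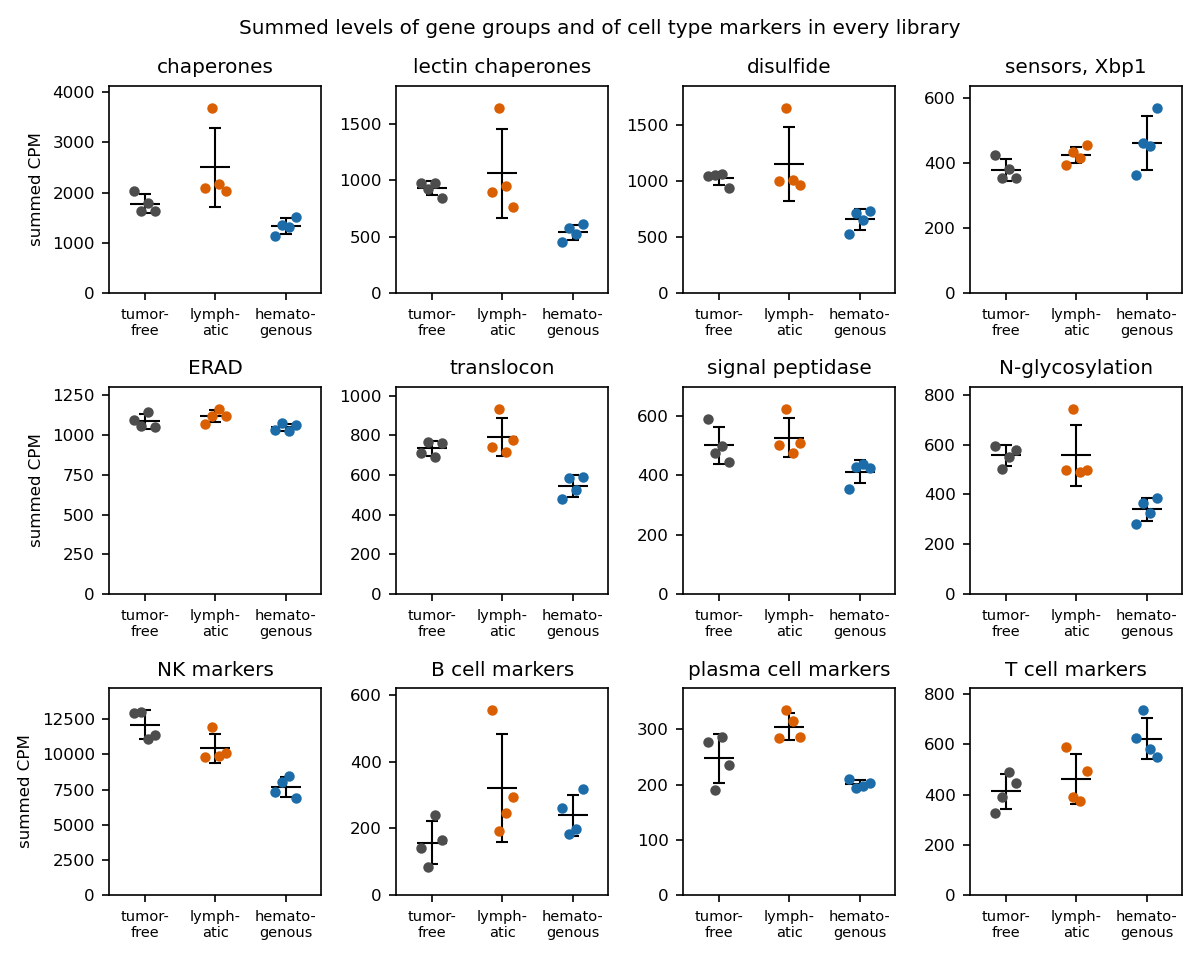
Summed CPM (vertical axes, from 0) of the 8 roles and of 4 lists of cell type markers in each of the 4 libraries of each group (points), with the group mean (dash) and SD (bar). Hematogenous libraries are lowest for chaperones, lectin chaperones, disulfide genes, the translocon, the signal peptidase and N-glycosylation and also for NK markers, the ERAD sums overlap, and lymphatic replicate 2 is the highest library for those 6 roles.

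Of 73 other genes of ER entry, folding, quality control and export, 70 were tested. None was called in the lymphatic model by edgeR (6 higher and 3 lower at an unadjusted p under 0.05, and 1 lower by DESeq2). In the hematogenous model 9 fell (12.9%, against 6.87% of all genes) and 1 rose (1.43%, against 9.52%). Between the models 8 were lower in hematogenous nodes (11.4%, against 5.92% of all genes). The median log2 fold change of the 70 was 0.08, −0.10 and −0.19 in the 3 comparisons, against 0.08, 0.08 and −0.01 over all genes. Ppib, the gene of the ER proline isomerase cyclophilin B, had 110.4, 121, 103 and 115 CPM in tumor-free, 76.6, 99.4, 85.2 and 87.7 CPM in lymphatic, and 47.4, 68.3, 63.3 and 67.6 CPM in hematogenous libraries. Its 3 groups did not overlap, and it fell in the hematogenous model by 0.86 (SE 0.14, adjusted p = 0.00051) on the log2 scale. Also lower than in tumor-free nodes were Srp14, of the signal recognition particle (−0.72, SE 0.149), the translocating chain factor Tram1 (−0.46, SE 0.107) and 3 more subunit genes of the oligosaccharyltransferase, Krtcap2 (−0.92, SE 0.191), Ddost (−0.66, SE 0.16) and the catalytic Stt3a (−0.45, SE 0.139). Of its other subunit genes tested, Stt3b, the other catalytic one (−0.07, adjusted p = 0.749), and Magt1 (−0.36, adjusted p = 0.186) were not called against tumor-free nodes. Both are named after their values were seen, and Magt1 was lower than in lymphatic nodes (adjusted p = 0.0197). Mogs, the gene of the glucosidase that starts the trimming of the sugars (−0.85, SE 0.197), and Tmbim6, the gene of an ER membrane protein of the BAX inhibitor family (−0.56, SE 0.122), were lower in hematogenous than in lymphatic nodes. Both were also called lower than in tumor-free nodes. So was Sil1 (−1.07, SE 0.268, adjusted p = 0.0107), named after its values were seen. Against tumor-free nodes Stt3a was lost without tumor-free 1 or 3 or hematogenous 1, 2 or 4 (highest adjusted p = 0.0835). Mogs was lost there without tumor-free 1, 2 or 3 or hematogenous 1 or 3 (highest adjusted p = 0.108). Between the models Mogs was lost without lymphatic 2 or hematogenous 3 (highest adjusted p = 0.0648). The gene that rose, Ufd1 of the complex that extracts ERAD substrates (0.45, SE 0.131), was named after its values were seen. Mbtps1, the protease that cleaves ATF6, was not called (0.22, SE 0.123, adjusted p = 0.251 in the hematogenous model).

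Of 14 genes of the response to phosphorylation of eIF2 alpha, which slows translation and favors ATF4, 12 were tested. Whether PERK or another kinase acted on eIF2 alpha was not measured. Ppp1r15a encodes GADD34, which brings a phosphatase to eIF2 alpha. It had 20.3, 15.5, 26.2 and 13.5 CPM in tumor-free, 216, 291, 153 and 198 CPM in lymphatic, and 99, 81.1, 96.6 and 148 CPM in hematogenous libraries. The 3 groups did not overlap, and the rise on the log2 scale was 3.48 (SE 0.236, adjusted p = 6.04e-08) in the lymphatic and 2.46 (SE 0.229, adjusted p = 7.7e-06) in the hematogenous model. Atf4 itself had 213, 211, 159 and 173 CPM in tumor-free, 322, 409.8, 273 and 335 CPM in lymphatic, and 204, 193, 219 and 247 CPM in hematogenous libraries. It rose in the lymphatic model (0.83, SE 0.138, adjusted p = 0.00149), and in the hematogenous model its log2 fold change was 0.19 (adjusted p = 0.384), or 0.40 (adjusted p = 0.0319) with the gene length trend removed. Ddit3, the gene of CHOP and a target of ATF4, was at 26.7 to 43.7 CPM over all libraries and was not called in the lymphatic (−0.02, adjusted p = 0.981) or the hematogenous model (−0.31, adjusted p = 0.249). Eif2s1, which encodes eIF2 alpha, was lower in hematogenous than in lymphatic nodes (−0.69, SE 0.173, adjusted p = 0.0171), a call that was lost without lymphatic 2 or hematogenous 1 or 2 (highest adjusted p = 0.0927). In all, 2 of the 12 rose in the lymphatic model (16.7%, against 2.32% of all genes). In the hematogenous model 1 rose (8.33%, against 9.52%), and between the models 3 were lower (25%, against 5.92%).

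Markers of NK cells were lower in the same libraries as the ER genes. Of 10 NK markers, 8 fell in the hematogenous model (summed level 11118 to 13038 CPM in tumor-free, 9794 to 11946 CPM in lymphatic and 6929 to 8487 CPM in hematogenous libraries). In the lymphatic model 1 of the 10 was called lower, and 9 had a negative log2 fold change. Over all genes, 6.87% fell and 9.52% rose in the hematogenous model, and 0.418% fell and 2.32% rose in the lymphatic model. In bulk libraries fewer cells of a type and less RNA per cell cannot be told apart. Of 10 T cell markers 4 rose in the hematogenous model (summed level 326 to 489, 376 to 591 and 550.2 to 736 CPM in the 3 groups) and so did 4 of 9 tested macrophage markers (237 to 399, 249 to 354 and 323 to 402 CPM). Among B cell markers 1 of 10, Pax5, was called higher in each model (82.9 to 239, 192 to 555 and 184 to 318 CPM). That is 10%, against 2.32% of all genes in the lymphatic and 9.52% in the hematogenous model. In each model 9 of the 10 had a positive log2 fold change, with medians of 1.10 and 0.55 (0.08 over all genes in both). An unadjusted p under 0.05 was reached by 6 in the lymphatic and 1 in the hematogenous model. Plasma cells hold abundant ER. Of their defining genes, Jchain was at 0 in all tumor-free libraries and at most 17.6 CPM over all libraries. Mzb1 was at most 1.89 CPM and Tnfrsf17 at 0 in every library but lymphatic 4 (0.59 CPM). Of 8 tested plasma cell markers none was called higher in either model. The highest log2 fold change among them was 9.49 in the lymphatic and 6.79 in the hematogenous model. The 10 plasma cell markers summed to 191 to 287, 284 to 335 and 193 to 210 CPM, most of it from Prdm1 and Slamf7, which NK cells also express, and Slamf7 fell in the hematogenous model. Of 6 tested erythroid and stromal markers 2 rose in each model (113 to 127, 174 to 210.3 and 116 to 191 CPM). The part of NK, T cell, macrophage and plasma cell RNA in the ER results was not tested. Nor was that of the lower share of reads in genes, and B cell markers were entered as a covariate.

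With the mean log2 level of the B cell markers as a covariate, 8 of the 22 hematogenous calls were kept, Sdf2l1, Calr, Pdia4, Sec61b, Spcs2, Ostc, Dad1 and Rpn1, all lower, and those of Ern1 (log2 fold change 0.56, adjusted p = 0.0888) and Dnajb9 (0.91, adjusted p = 0.0513) were among the 14 lost. The log2 fold changes of the 14 kept their sign and were 0.702 to 1.14 times those without the covariate, and those of Dnajb9, Derl1 and Sec61a1 were larger with it. Of the other ER genes Ddost (−0.51, adjusted p = 0.0845), Stt3a (−0.47, adjusted p = 0.0878), Mogs (−0.55, adjusted p = 0.144) and Tmbim6 (−0.46, adjusted p = 0.0598) were lost against tumor-free nodes. This covariate moved with the group: centered over all libraries, its tumor-free values were −2.62 to 0.50 and its hematogenous values −0.17 to 0.61. With the same covariate both lymphatic calls and 26 of the 27 calls between the models were kept, all but Manf. With the gene length trend removed 16 genes were called in the hematogenous model, 1 higher and 15 lower, and Ern1, Os9, Derl1, Sec61g, Spcs3 and Ssr2 were lost, as were Srp14, Krtcap2 and Mogs of the other ER genes. The median exon length was 3234 bases for the 20 genes that fell there and 4229 for the other 25.

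Leaving out 1 library gave 14 to 26 calls of the 45 in the hematogenous model, the fewest without hematogenous replicate 3, and 13 of the 22 genes were called whichever library was left out. Between the models it gave 12 to 27 calls, with 12 without lymphatic replicate 2, 12 without hematogenous replicate 1 (where Ern1 was called higher and the other 11 lower) and 14 without hematogenous replicate 3. The 11 genes called there whichever library was left out were Hspa5, Hsp90b1, Sdf2l1, Calr, Canx, Pdia3, Pdia4, Pdia6, Ssr2, Dad1 and Rpn1. Their log2 fold changes still depended on single libraries. With 1 left out they shrank at most to −0.90 for Calr (−1.25 with all), −0.90 for Hspa5 (−1.18) and −0.68 for Pdia6 (−1.06). With each of 3 other scalings the calls of Manf, Xbp1, Os9, Sec61a1, Sec61g, Ssr1, Ssr3 and Rpn2 between the models were lost, all with their direction kept. The same scalings moved the balance over all genes. Of the genes called between the models 33.1% were higher in hematogenous nodes with TMM scaling, against 47.4% with DESeq2 size factors, 52.3% with upper quartiles and 55.8% with library size alone, and in the lymphatic model 84.7% were higher with TMM, against 75.5%, 75.0% and 73.2%.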

How the data were processed

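RNA of sorted NK cells was read as poly(A) selected, stranded, single-end 120-base libraries, per the labels' protocols. The authors deposited unnormalized whole-number counts of reads for each gene. The submitters' processing notes name HTSeq 2.0.2, HISAT2 2.1.0, Trimmomatic 0.39 and FastQC 0.11.9 and the build GRCm39. Summary lines such as reads in no feature (11.4% to 24.6%) were left out. Symbols were matched for 52073 of 56748 gene IDs (GENCODE M21), which hold 99.5% of counts.

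All 12 libraries were fitted in edgeR 4.0.16 (R 4.3.3, limma 3.58.1) with TMM factors, filterByExpr, a term per group and the robust quasi-likelihood test (9 residual degrees of freedom), with Benjamini-Hochberg adjustment over 16016 genes. SE is the log2 fold change divided by the root of F. Total gene counts of 6654215 to 43494812 per library limit the precision of low genes. The code was tested on simulated data. Members and lists were chosen with earlier results of these data known. Named were all called members, the member with the smallest p of each role, and Hspa5, Hsp90b1, Calr, Xbp1, Atf6, Ern1, Eif2ak3, Dnajb9 and Herpud1. Of the other ER list Mbtps1 and up to 4 called genes per comparison with the smallest adjusted p were named. From the eIF2 alpha list, Atf4, Ddit3 and all called genes were named. Alternatives were other scalings, no filter, DESeq2 1.42.0, a replicate block, only the 2 groups compared, a B cell covariate and each library left out. A length correction and equal depth were added after seeing the data.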

Additional observations from a re-analysis of the deposited data

Results flagged for a closer look

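In 13 of 96 groups of 4 libraries tested, 1 library lay apart from the rest, its gap to the nearest library divided by the group's range exceeding Dixon's critical value for 4 samples. Chance flags about 1 in 20 groups, and genes of 1 library are not independent. In 10 of the 13 it was lymphatic replicate 2, as the highest of its group. The ratio was 0.986 for Hspa5 (1539.5 CPM, next 816 CPM), 0.974 for Rpn1, 0.902 for Rpn2, 0.899 for Canx, 0.892 for Manf and 0.883 for Hsp90b1. It was 0.876 for Spcs2, 0.869 for Pdia6, 0.86 for Pdia3 and 0.839 for P4hb. Hematogenous replicate 1 was the lowest of its group for Dnajb11 (0.951; 71 CPM, next 102 CPM) and Spcs2 (0.918; 47.3 CPM, next 84.4 CPM). Tumor-free replicate 1 was the highest of its group for Xbp1 (0.913; 95.2 CPM, next 75.4 CPM). What sets these libraries apart was not tested.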

How the results depend on the processing

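No call of a named gene reversed under any alternative run. The 2 lymphatic calls of the 45 genes were kept throughout (2 to 3 calls). Without lymphatic replicate 2, the lymphatic differences of 14 named but uncalled genes of the 45 changed sign. The count of 22 in the hematogenous model became 8 with the B cell covariate, with the log2 fold changes of the 14 lost genes at 0.702 to 1.14 times their size, and 14 to 26 with 1 library left out. The count of 27 between the models ranged from 12 to 27 with 1 library left out. Over all genes, the 439 called in the lymphatic model were 729 with DESeq2's test, 139 with the B cell covariate and 255 to 634 with 1 library left out, fewest without lymphatic 4. The 2625 called in the hematogenous model were 966 with the covariate and 1760 to 3202 with 1 library left out. The 1417 called between the models were 620 to 1572 with 1 library left out, with 620 without lymphatic 2 or hematogenous 3 and 811 without hematogenous 1. Library size alone moved the median of all genes between the models by 0.11 on the log2 scale. With the replicate number as a block 362, 2518 and 1439 genes were called, and 2, 24 and 26 of the 45. Nothing in the labels ties same-numbered libraries to a shared animal, day or batch, so the numbers were not taken as pairs. Correlations of their deviations from the group means were −0.07 to 0.06. Depth limits Derl3, at no more than 3.11 CPM. The causes of these differences were not tested.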
